A study of Mus musculus with 8 samples.

Results

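ADP-ribosylation is written onto proteins by PARP enzymes and taken off again by hydrolases. Here 10 genes of this cycle were followed across immature myeloid cells (IMCs) from mice with PARP1 or PARP2 deleted in the myeloid lineage. The genes were the DNA-damage PARPs Parp1, Parp2 and Parp3, the vault-particle enzyme Parp4, the tankyrases Tnks and Tnks2, the membrane-bound Parp16, and the erasers Parg, Adprhl2 and Macrod1. They were located by symbol in the deposited count table of 24062 genes. All 10 were found, and all 10 were among the 13197 genes that passed the filter on low counts. The comparison asks whether loss of either PARP changes the transcripts of its relatives or of the enzymes that remove ADP-ribose.

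Total RNA was sequenced in 8 libraries, 2 per group. All mice were C57BL/6 and 2 months old. PARP1 WT mice were PARP1 flox/flox and PARP1CKO mice were PARP1 flox/flox+lysozyme-Cre. PARP2 WT mice were PARP2 flox/flox and PARP2CKO mice were PARP2 flox/flox+lysozyme-Cre. Every WT littermate therefore also carried the floxed gene, and only the CKO mice carried Cre. Cre and each deletion changed together, so their effects cannot be told apart. Lysozyme-Cre is active in cells of the myeloid lineage, and the cells were grown from bone marrow for 3 days with M-CSF, a growth factor for that lineage, at 40 ng per mL. The libraries held between 37852450 and 61845125 counts, and levels are given as CPM, counts scaled to the size of each library with TMM factors from edgeR, with SD over n = 2 libraries. A gene was called when its p-value from edgeR's quasi-likelihood test, adjusted by Benjamini-Hochberg over all genes tested, was under 0.05.

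PARP1 binds DNA strand breaks, is switched on by them, and builds chains of poly-ADP-ribose on itself, on histones and on repair factors. PARP2 is switched on in the same way and accounts for a smaller share of the chains, and the loss of both enzymes is lethal to mouse embryos. PARG cuts the chains, ADPRHL2 (also called ARH3) releases the last unit from serine, and MACROD1 releases it from acidic residues. PARP1 and PARP2 are the targets of olaparib and related drugs, and the cells compared here came from mice with either gene alone targeted for deletion.

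The 2 deleted genes were the only members called. In PARP1CKO IMCs 1 of 10 members, Parp1, was called, beside 0.106% of all genes tested, and in PARP2CKO IMCs 1 of 10, Parp2, was called, beside 0.053% of all genes. Parp1 fell to 29.6% and Parp2 to 53.3% of the mean of their own WT littermates. None of the remaining 9 members was called in either comparison, and their log2 fold changes lay between -0.09 and 0.36 in PARP1CKO and between -0.07 and 0.37 in PARP2CKO. The medians of those 9 members were 0.00 in PARP1CKO and -0.01 in PARP2CKO, beside medians of 0.01 and -0.00 over all genes tested.

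**Figure D1:**
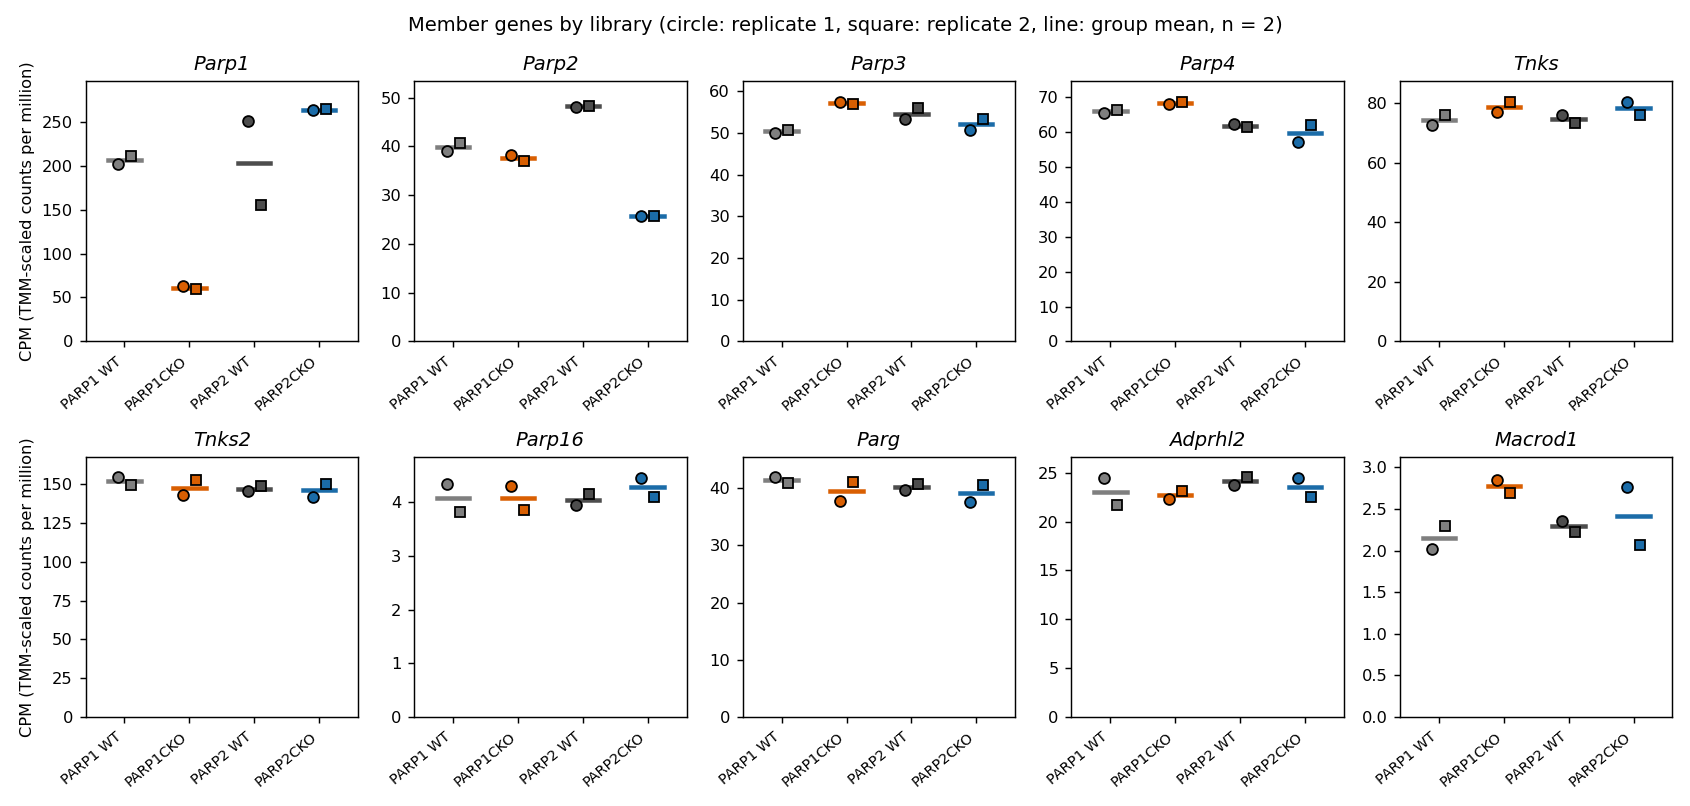
Level of each of the 10 genes in every library, in CPM from 0, with replicate 1 as circles, replicate 2 as squares and the group mean as a line (n = 2). Parp1 is low in PARP1CKO alone, Parp2 is low in PARP2CKO alone, and Parp1 in PARP2 WT replicate 2 lies at 155 CPM against 251 CPM in replicate 1.

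Parp1 lies on the plus strand at chr1:180568924-180601254 (GRCm38, the mm10 assembly, GENCODE M21). The PARP1 WT libraries held 202 and 211 CPM and the PARP1CKO libraries 63.2 and 59.1 CPM. The PARP1CKO libraries were therefore far below the littermates, and the replicates of each group lay close together. Means were 206 ± 6.18 and 61.2 ± 2.91 CPM. This is a log2 fold change of -1.75 (95% interval -2.16 to -1.35, standard error 0.178, adjusted p = 0.0134 in edgeR's quasi-likelihood test). In bulk RNA, fewer cells that hold the transcript and less transcript per cell cannot be told apart. The floxed exons are not given in the sources used here, so that the remaining 3189 and 2672 counts may come from undeleted cells or from exons that the deletion leaves, which cannot be told apart.

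The size of the Parp1 fall did not rest on any library, but its call did. With each of the 8 libraries left out in turn, its log2 fold change was from -1.80 to -1.71. The adjusted p rose to 0.0753 without PARP1 WT replicate 1, to 0.0650 without PARP1 WT replicate 2 and to 0.0531 without PARP1CKO replicate 2, all in edgeR's quasi-likelihood test. In these fits the lone library of a group was taken to vary like the other groups. The PARP2 WT libraries entered this call through the shared estimate of spread, and the standard error went from 0.178 to 0.0515 without PARP2 WT replicate 1 and to 0.0525 without PARP2 WT replicate 2.

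Mir6904, an annotated microRNA hairpin inside Parp1, had its lowest values in the same libraries and was singled out after its values were seen. It lies at chr1:180587201-180587267 on the strand of Parp1, with 60 bases in intron 8 and 7 bases in exon 9 of a Parp1 transcript of 23 exons. The hairpin (RefSeq, GRCm38.p6) is shown because its end marks that boundary, with the bases of exon 9 in capitals:
Mir6904: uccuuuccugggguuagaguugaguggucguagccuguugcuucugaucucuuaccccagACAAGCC
Counts were 233 and 416 in the littermates and 132 and 93 in PARP1CKO. The PARP1CKO libraries were the lowest of all 8, as they were for Parp1. Its change in PARP1CKO, -1.63 on the log2 scale with a standard error of 0.240, had an adjusted p of 0.0597 in edgeR's quasi-likelihood test and was not called. It was called with DESeq2, with edgeR's likelihood-ratio test and with no filter, and in the quasi-likelihood test of edgeR without PARP2 WT replicate 1 (adjusted p = 0.0215) or without PARP2 WT replicate 2 (adjusted p = 0.0214), libraries that enter through the shared spread. Reads counted on this locus cannot be told from reads of the Parp1 precursor transcript that contains it.

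Parp1 itself was variable in the PARP2 mice. It had 251 CPM in PARP2 WT replicate 1, 155 CPM in PARP2 WT replicate 2, and 263 and 264 CPM in the PARP2CKO libraries. The PARP2 WT libraries differed from each other more than any other replicate pair, with replicate 2 at 61.8% of replicate 1, and both PARP2CKO libraries lay above both. In PARP2CKO the value was 0.37 on the log2 scale with a standard error of 0.169 (edgeR's quasi-likelihood test, adjusted p = 0.954), and the 95% interval ran from -0.01 to 0.76, or 0.993-fold to 1.69-fold. Without PARP2 WT replicate 1 the value was 0.76 with an adjusted p of 0.00226, and without PARP2 WT replicate 2 it was 0.07 with no call, so the call of Parp1 in PARP2CKO depended on which WT library was used. Mir6904 had 8.70 CPM in PARP2 WT replicate 1 and 5.71 CPM in replicate 2, or 65.6%. The lower value of replicate 2 was thus seen on both features, but Mir6904 lies inside Parp1 and is not a separate measure.

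Parp2, on the plus strand at chr14:50807841-50821301, fell in PARP2CKO. The PARP2 WT libraries held 48.2 and 48.3 CPM and the PARP2CKO libraries 25.7 and 25.6 CPM. Replicates were nearly equal, and the groups were far apart. Its log2 fold change was -0.91 (95% interval -1.01 to -0.81, standard error 0.0453, adjusted p = 0.000139 in edgeR's quasi-likelihood test). The call held when each of the 8 libraries was left out, with a log2 fold change of -0.91 each time. As for Parp1, the remaining 1536 and 1238 counts may come from undeleted cells or undeleted exons, which cannot be told apart.

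In the PARP1 mice Parp2 had 39.1 and 40.8 CPM in the littermates and 38.3 and 37.0 CPM in PARP1CKO. Both PARP1CKO libraries were slightly below both littermate libraries. The change of -0.09 on the log2 scale had a standard error of 0.0452 and was not called (edgeR's quasi-likelihood test, adjusted p = 0.501), and the 95% interval of the fold ran from 0.878 to 1.01. The 2 WT groups also differed in this gene, with means of 39.9 ± 1.22 CPM in the PARP1 line and 48.3 ± 0.105 CPM in the PARP2 line. This contrast between mouse lines was not tested.

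The effects of the 2 deletions on each targeted gene were then set against each other. Each of these genes is deleted in only 1 line, so a difference was set by the design. For Parp2 the effect in PARP2CKO minus that in PARP1CKO was -0.82 on the log2 scale (standard error 0.0639, adjusted p = 0.00634 in edgeR's quasi-likelihood test), and Parp2 was the 1 of 10 members called for this difference, beside 0.0152% of all genes. None of the 8 members other than Parp1 and Parp2 was called for the difference. Unadjusted p-values under 0.05 for the difference were found for 3 members, Parp1, Parp2 and Parp3, and for 7.69% of all genes. For Parp1 the difference was 2.13 (standard error 0.245), with an adjusted p of 0.0552 in the same test. It passed the threshold with DESeq2, with edgeR's likelihood-ratio test, with no filter, and with library size as the scaling. In the quasi-likelihood test it also passed without PARP2 WT replicate 1 (2.52), without PARP2 WT replicate 2 (1.83) and without PARP1CKO replicate 1 (2.18). It did not pass with any other library left out, where it ran from 2.08 to 2.16. The standard error of the difference was 0.0821 without either PARP2 WT library.

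**Figure D2:**
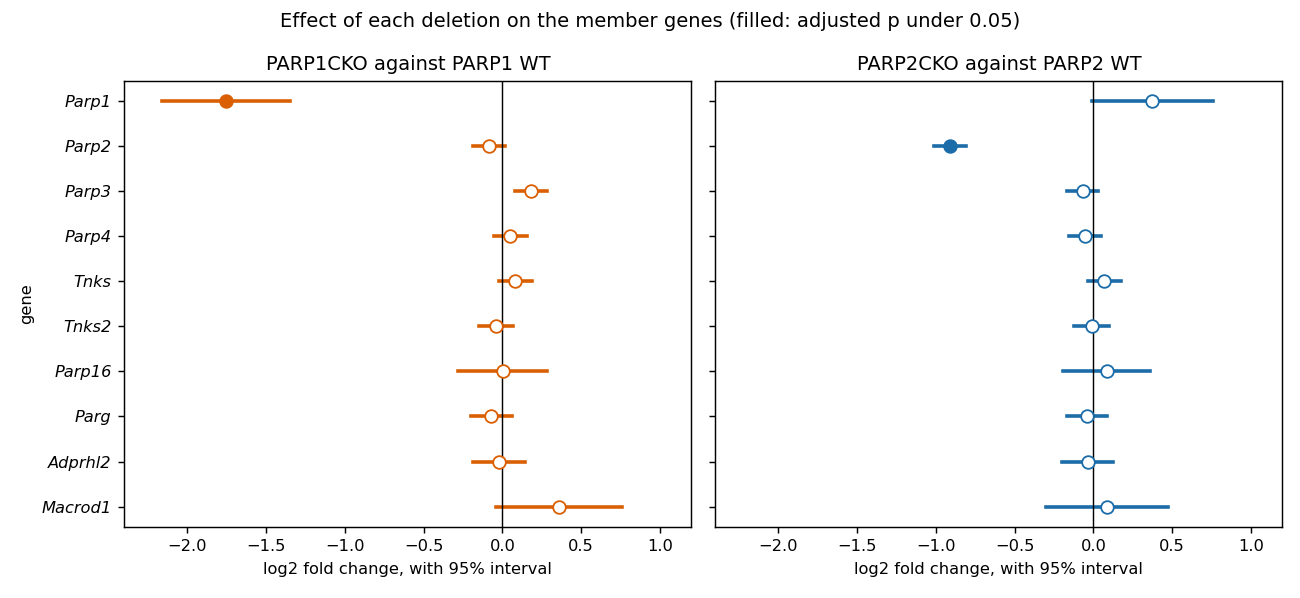
Log2 fold change of each of the 10 genes in PARP1CKO (left) and PARP2CKO (right) against WT littermates, with 95% intervals and filled points for an adjusted p under 0.05. The filled points are Parp1 at -1.75 on the left and Parp2 at -0.91 on the right, and the widest intervals among the other genes are those of Parp1 in PARP2CKO, Macrod1 and Parp16.

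**Figure D3:**
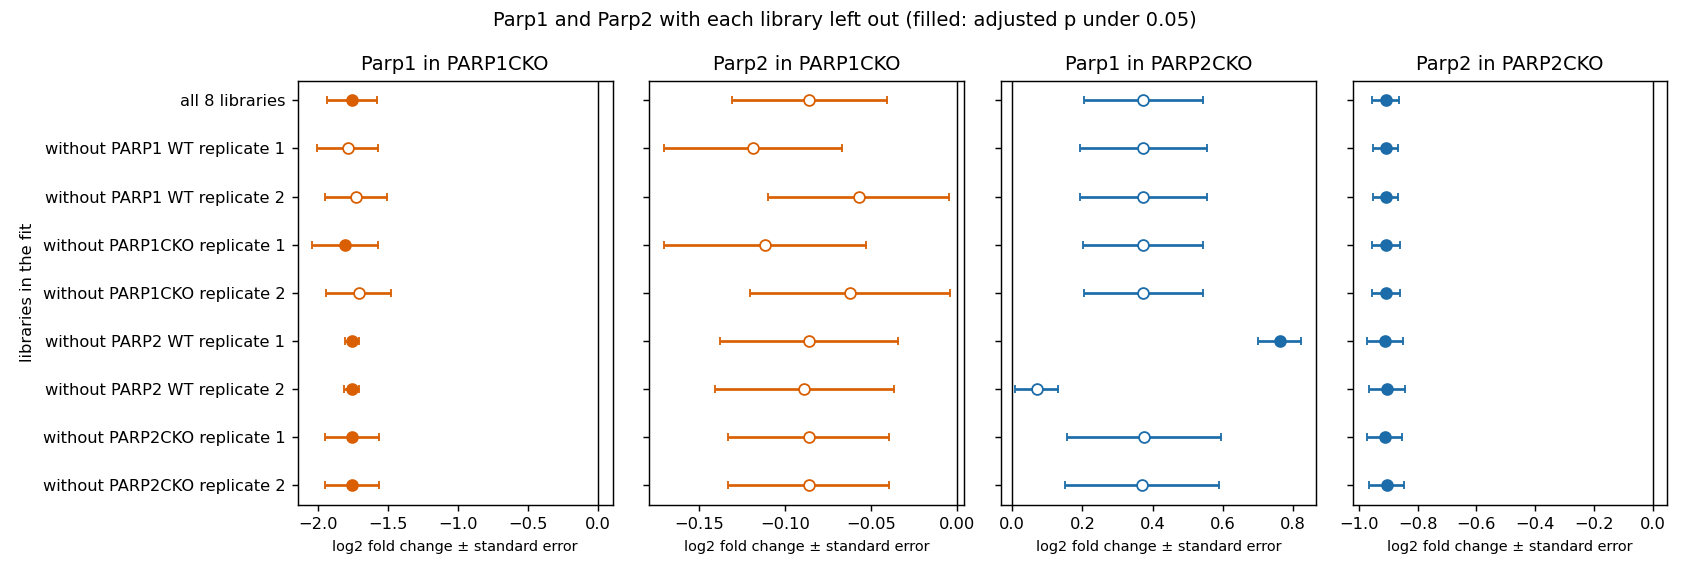
Log2 fold change ± standard error of Parp1 and Parp2 in each comparison with all 8 libraries and with each left out, filled where the adjusted p is under 0.05. Parp1 in PARP2CKO moves from 0.37 to 0.76 without PARP2 WT replicate 1 and to 0.07 without PARP2 WT replicate 2, while Parp2 in PARP2CKO stays at -0.91. The scale differs between panels.

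The sequence around the start of each deleted gene was examined because Parp2 shares its upstream region with another transcript. Windows of 300 bases (RefSeq, GRCm38.p6, plus strand) are shown for Parp1 at chr1:180568641-180568940 and Parp2 at chr14:50807666-50807965. In Parp1 the capitals mark GGGCGG or its reverse complement CCGCCC, the core of the GC box, and in Parp2 they mark the bases that GENCODE assigns to Rpph1 on the other strand:
Parp1: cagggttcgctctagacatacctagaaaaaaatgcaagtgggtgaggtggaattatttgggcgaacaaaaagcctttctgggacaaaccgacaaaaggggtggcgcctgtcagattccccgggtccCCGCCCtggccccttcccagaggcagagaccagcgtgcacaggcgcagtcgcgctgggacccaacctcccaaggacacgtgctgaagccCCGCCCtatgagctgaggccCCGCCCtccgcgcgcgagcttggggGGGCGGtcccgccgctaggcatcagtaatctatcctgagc
Parp2: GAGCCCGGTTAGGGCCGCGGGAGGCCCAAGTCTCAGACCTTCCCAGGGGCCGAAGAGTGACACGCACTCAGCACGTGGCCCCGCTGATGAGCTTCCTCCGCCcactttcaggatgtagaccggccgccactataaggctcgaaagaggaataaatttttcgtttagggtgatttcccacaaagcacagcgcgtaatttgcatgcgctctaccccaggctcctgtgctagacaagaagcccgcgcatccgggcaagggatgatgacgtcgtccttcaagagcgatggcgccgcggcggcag
The Parp1 window held 4 GC-box cores, whose first letters lie at -124, -35, -15 and 11 from the RefSeq start. GGGCGG on either strand was present in 35.9% of 27018 promoter windows, and in those of Parp1, Parp2, Parp4 and Macrod1 among the 9 members in the table. The Parp2 window held ATTTGCAT, the octamer element, from -56, and either strand of that motif was present in 1.75% of windows. A match describes letters in the window only.

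Rpph1, the RNA of the tRNA-processing enzyme RNase P, is encoded on the minus strand at chr14:50807449-50807767, and 73 bases separate it from Parp2 in GENCODE. Counts were 464 and 55 in the PARP2 littermates and 76 and 22 in PARP2CKO. PARP2 WT replicate 2 (1.06 CPM) was below PARP2CKO replicate 1 (1.27 CPM), so the groups overlapped. PARP2 WT replicate 1, at 8.02 CPM, lay within the range of the PARP1 mice, 3.67 to 8.65 CPM, and the other 3 PARP2 libraries lay below that range. Its log2 fold change of -2.36 (adjusted p = 0.888 in edgeR's quasi-likelihood test) became -0.24 without PARP2 WT replicate 1, -3.16 without PARP2 WT replicate 2 (adjusted p = 0.0960) and -3.33 without PARP2CKO replicate 1, with no call. The nearest tested gene on the other side, Tep1, which encodes a protein of telomerase and vault particles, had a log2 fold change of 0.04.

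Within 500 kb of the Parp1 start, 13 other genes were tested and none was called in PARP1CKO. Their median was -0.01 on the log2 scale, and 4 had an unadjusted p under 0.05, beside 11.3% of all genes tested. The 4 were Mir6904 (-1.63), Lin9 (-0.16), Tmem63a (0.17) and Ephx1 (0.21). Mir6904 lies inside Parp1 and is not a separate neighbour, since its reads cannot be told from the Parp1 precursor. Within 500 kb of the Parp2 start, 14 were tested and none was called in PARP2CKO, with 1 unadjusted p-value under 0.05, beside 4.83% of all genes. The genes next to Parp1 were Itpkb, a kinase of inositol trisphosphate, at -0.00, and Lin9, a subunit of the cell-cycle DREAM complex, at -0.16 (adjusted p = 0.371 in edgeR's quasi-likelihood test). Over the 20 tested genes next to the 10 members, none was called in either comparison. The neighbours with an unadjusted p under 0.05 were Lin9, Mphosph8 and Dusp4 in PARP1CKO and Rpph1 and Dusp4 in PARP2CKO.

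**Figure D4:**
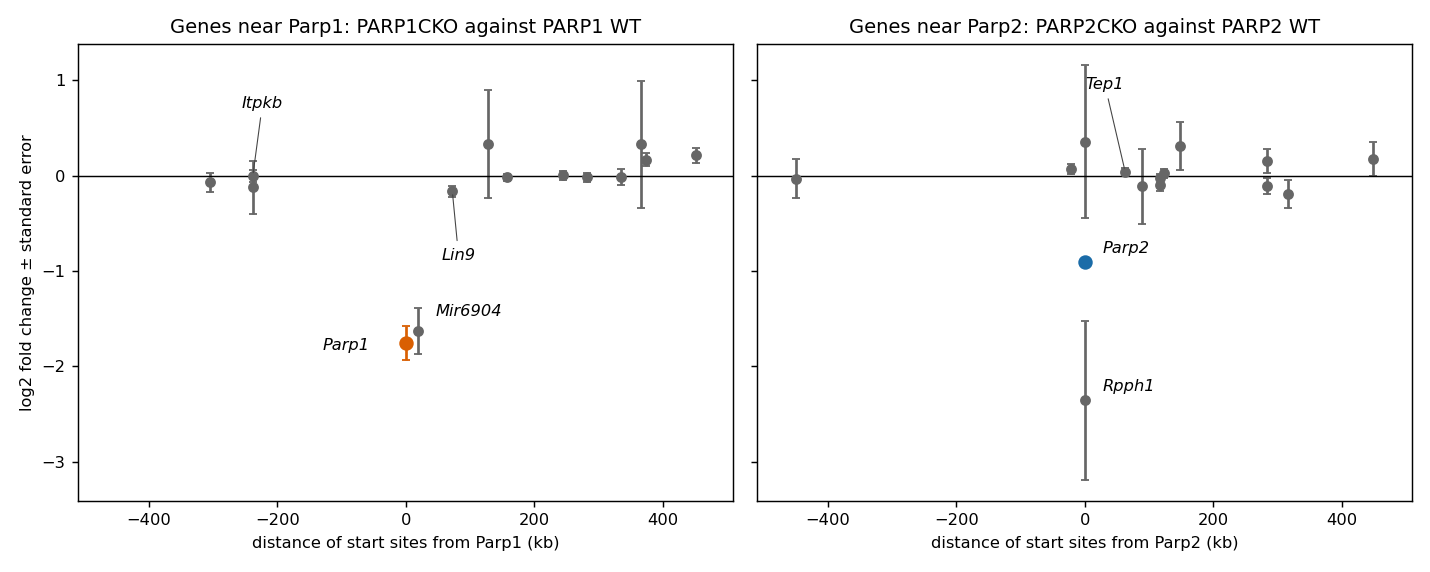
Log2 fold change ± standard error of tested genes within 500 kb of Parp1 (left, PARP1CKO) and Parp2 (right, PARP2CKO), by distance between start sites in kb. Apart from the targeted gene, the low points are Mir6904 at -1.63, inside Parp1, and Rpph1 at -2.36, whose WT libraries differ widely.

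Parp3, at chr9:106470322-106476949 on the minus strand, encodes the third break-activated PARP, which attaches mono-ADP-ribose. Its PARP1 WT libraries held 50.0 and 50.7 CPM and its PARP1CKO libraries 57.5 and 56.9 CPM. The PARP1CKO libraries were the highest of all 8, and the replicates differed by less than 1 CPM. Its log2 fold change was 0.18 (95% interval 0.08 to 0.28, standard error 0.0447), a 1.14-fold level, with an unadjusted p of 0.00278 and an adjusted p of 0.253 in edgeR's quasi-likelihood test, so it was not called. With each library left out the value lay between 0.17 and 0.19. Parp3 and Parp1 were the 2 of 10 members with an unadjusted p under 0.05 in PARP1CKO, where 11.3% of all genes tested had one.

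In the PARP2 mice Parp3 had 53.2 and 55.9 CPM in the littermates and 50.6 and 53.4 CPM in PARP2CKO, and the groups overlapped. The value was -0.07 on the log2 scale with a standard error of 0.0441 (edgeR's quasi-likelihood test, adjusted p = 0.954). In PARP2CKO Parp2 was the 1 member with an unadjusted p under 0.05, beside 4.83% of all genes. The difference between the effects of the 2 deletions on Parp3 was -0.25 (standard error 0.0628, 95% interval -0.39 to -0.11), with an unadjusted p of 0.00316 and an adjusted p of 0.414 in the same test. Parp3 shares 987 bases with Rrp9, a small nucleolar RNP gene on the opposite strand, and whether the counting used strand is not given in the sources used here. Rrp9 had a log2 fold change of -0.04 in PARP1CKO and 0.03 in PARP2CKO.

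Parp4, at chr14:56575619-56659794 on the plus strand, encodes the PARP of the vault, a large ribonucleoprotein particle. The PARP1 littermates had 65.7 and 66.5 CPM and PARP1CKO 68.1 and 68.6 CPM, with no overlap and a log2 fold change of 0.05 (95% interval -0.06 to 0.15). In the PARP2 mice the littermates had 62.4 and 61.5 CPM and PARP2CKO 57.2 and 62.2 CPM, with overlap, and the value of -0.05 changed sign without PARP2CKO replicate 1. Neither passed the test, with adjusted p-values of 0.709 and 0.958 in edgeR's quasi-likelihood test.

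The tankyrases attach poly-ADP-ribose to axin and other partners, which the ubiquitin ligase RNF146 then marks for destruction. Tnks, at chr8:34826460-34965690 on the minus strand, lay between 72.6 and 80.6 CPM over the 8 libraries. Both CKO groups were above both of their WT libraries, with log2 fold changes of 0.08 in PARP1CKO and 0.07 in PARP2CKO and adjusted p-values of 0.529 and 0.954 in edgeR's quasi-likelihood test. The 95% intervals on the log2 scale ran from -0.02 to 0.19 and from -0.04 to 0.18.

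Tnks2, at chr19:36834232-36893477 on the plus strand, ran from 142 to 155 CPM, and its highest library was 1.09 times its lowest, the smallest such ratio of the members. The groups overlapped in both comparisons, and the log2 fold changes were -0.04 and -0.01. Both changed sign with a library left out, so no direction is given.

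Parp16, at chr9:65195353-65239224 on the plus strand, encodes a mono-ADP-ribosyl transferase anchored in the membrane of the endoplasmic reticulum. It was detected with between 168 and 266 counts, or 3.83 to 4.46 CPM. All 4 groups overlapped, and the log2 fold changes were 0.00 in PARP1CKO, where the sign depended on the scaling, and 0.08 in PARP2CKO. At this depth the 95% interval of the fold ran from 0.823 to 1.22 in PARP1CKO and from 0.876 to 1.28 in PARP2CKO.

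Among the erasers, Parg, at chr14:32201949-32297550 on the plus strand, encodes the main glycohydrolase of poly-ADP-ribose. PARP1 WT libraries held 41.9 and 40.9 CPM, PARP1CKO 37.7 and 41.1 CPM, PARP2 WT 39.6 and 40.7 CPM, and PARP2CKO 37.6 and 40.6 CPM. Replicate 1 of both CKO groups was low and replicate 2 lay near the littermates, so the groups overlapped in both comparisons. The log2 fold changes were -0.07 in PARP1CKO (95% interval -0.20 to 0.06) and -0.04 in PARP2CKO (95% interval -0.17 to 0.09), with adjusted p-values of 0.670 and 0.977 in edgeR's quasi-likelihood test. The value in PARP2CKO changed sign without PARP2CKO replicate 1.

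Adprhl2, at chr4:126316047-126321703 on the minus strand, lay between 21.7 and 24.5 CPM over all libraries. The groups overlapped in both comparisons, with means of 23.1 ± 1.92 CPM for PARP1 WT, 22.7 ± 0.574 CPM for PARP1CKO, 24.1 ± 0.555 CPM for PARP2 WT and 23.5 ± 1.39 CPM for PARP2CKO. The values of -0.02 and -0.04 on the log2 scale had 95% intervals of -0.18 to 0.14 and -0.20 to 0.12, and both changed sign with a library left out.

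Macrod1, at chr19:7056810-7198057 on the plus strand, encodes a macrodomain hydrolase found mostly in mitochondria and had the fewest counts of the members. The PARP1 littermates had 78 and 114 counts (2.02 and 2.30 CPM) and PARP1CKO had 144 and 122 (2.85 and 2.70 CPM). Both PARP1CKO libraries were above both littermates. The value of 0.36 on the log2 scale had a 95% interval of the fold from 0.974 to 1.69 and was not called (edgeR's quasi-likelihood test, adjusted p = 0.469). The PARP2 littermates had 136 and 116 counts and PARP2CKO 165 and 100, with overlap and a log2 fold change of 0.09 (95% interval of the fold 0.811 to 1.39), which was -0.15 without PARP2CKO replicate 1 and 0.27 without PARP2CKO replicate 2.

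Counting all 10 members, 2 lay fully below and 4 fully above their littermates in PARP1CKO and 4 overlapped. Over all genes tested, 20.2% lay fully below and 21% fully above in that comparison. In PARP2CKO 1 member lay fully below, 2 fully above and 7 overlapped, beside 18.8% and 18.4% of all genes. The comparisons do not share control libraries, but they share the estimate of spread. The smallest two-sided p of an exact permutation of 2 against 2 libraries is 0.333, which is why only the model across genes was used for p-values. The libraries are biological duplicates, and whether each came from a separate mouse is not stated, so the p-values measure the spread between libraries.

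The members were also ordered by level per length, as CPM divided by the kilobases of all annotated exons of the gene. Parp1 stood highest, with a median of 39.0 CPM per kb over 8 libraries. Parp3 and Tnks2 followed at 14.4 CPM per kb each, then Parp2 at 10.7, Parp4 at 9.80, Adprhl2 at 9.47, Parg at 7.03, Tnks at 5.12, Macrod1 at 1.89 and Parp16 at 1.06 CPM per kb. The ranges over libraries overlapped between Parp3 and Tnks2, between Parp2 and Parp4 and between Parp4 and Adprhl2, so the ranges of these neighbours in the order are not separated. Between Parp2 and Parp4 the overlap came from the CKO libraries, and in the 4 WT libraries Parp2 (10.8 to 13.3 CPM per kb) lay above Parp4 (9.41 to 10.2 CPM per kb). In the PARP1CKO libraries the order differed, and Parp1, at 11.9 and 11.2 CPM per kb, lay below Parp3 (15.5 and 15.4) and Tnks2 (13.7 and 14.7). With the longest transcript as the length, Tnks2 moved above Parp3 and Adprhl2 above Parp4. In PARP2CKO Parp2 was at 7.10 and 7.07 CPM per kb, within the range of Parg, 6.50 to 7.25.

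**Figure D5:**
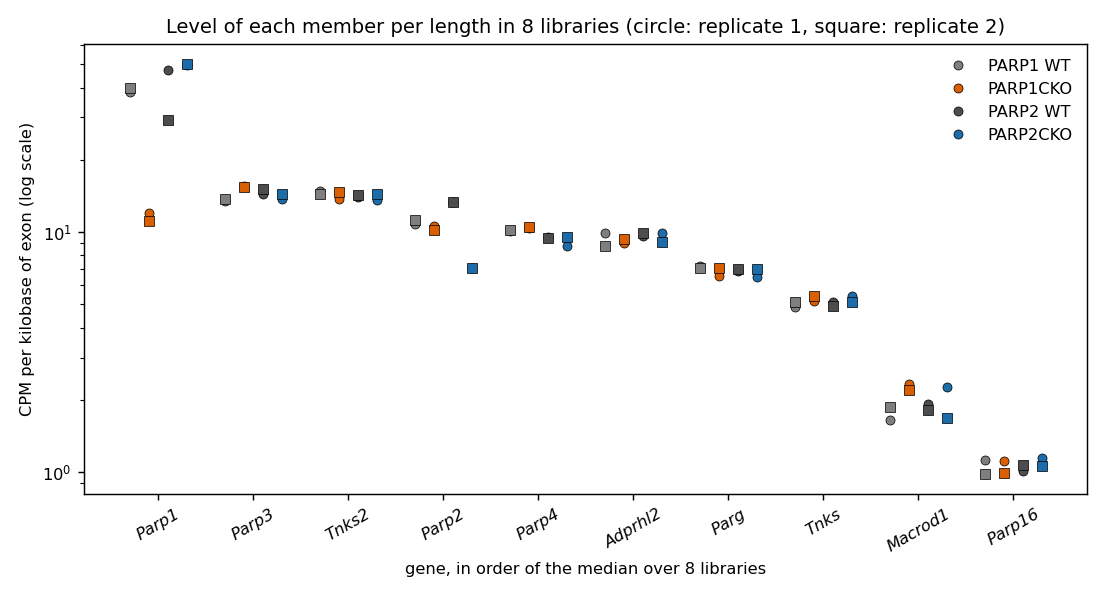
CPM per kilobase of exon on a log axis for each of the 10 genes, in order of the median over 8 libraries, with replicates as circles and squares. Parp1 spans from 11.2 in PARP1CKO to 49.9 CPM per kb in PARP2CKO, and Macrod1 and Parp16 sit below all libraries of the other genes.

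Genes that work with these enzymes were examined as lists, and no gene of any list was called in either comparison or for their difference. Counts of unadjusted p-values under 0.05 in the lists stand beside 11.3% of all genes tested in PARP1CKO and 4.83% in PARP2CKO. Of 17 proteins that act with PARP1, PARP2 or their product, 4 had an unadjusted p under 0.05 in PARP1CKO, and the list's median was -0.02 on the log2 scale. Parpbp, which encodes a PARP1-binding inhibitor of recombination, was lower in both PARP1CKO libraries than in either littermate, with a log2 fold change of -0.22 (adjusted p = 0.287 in edgeR's quasi-likelihood test). Hpf1, listed as 2700029M09Rik, directs PARP1 and PARP2 to serine and had a log2 fold change of -0.15 in PARP1CKO and 0.02 in PARP2CKO, and it was named outside the rule for list genes, after its values were seen. In PARP2CKO 0 of the 17 had an unadjusted p under 0.05, the median was -0.03, and the smallest p-values were those of Parpbp at -0.10 and Chfr, a checkpoint ubiquitin ligase that binds poly-ADP-ribose, at -0.07.

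Of 12 tankyrase partners and substrates, 2 had an unadjusted p under 0.05 in PARP1CKO and 0 in PARP2CKO, with medians of -0.01 and -0.02. Rnf146 had a log2 fold change of -0.17 in PARP1CKO and 0.01 in PARP2CKO, and Ptges3, a chaperone partner that stabilises telomerase, had -0.11 and -0.02. In PARP2CKO the smallest p-value of the list was that of Terf1, which encodes a telomere protein. Its log2 fold change was -0.12, and ran from -0.18 to -0.05 with a library left out. None of these values passed the test.

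Of 8 other tested enzymes that remove or process ADP-ribose, 1 had an unadjusted p under 0.05 in PARP1CKO and 0 in PARP2CKO, with medians of -0.00 and 0.02. Nudt5, which splits free ADP-ribose, had 34.3 and 32.5 CPM in the littermates and 29.8 and 28.7 CPM in PARP1CKO, a log2 fold change of -0.19 (adjusted p = 0.287 in edgeR's quasi-likelihood test). Adprh, which releases ADP-ribose from arginine, had 0.10 in PARP1CKO and 0.07 in PARP2CKO. Enpp1, a membrane pyrophosphatase, had 0.15 in PARP1CKO and 0.09 in PARP2CKO. With a library left out the PARP2CKO values ran from 0.01 to 0.13 for Adprh and from 0.04 to 0.13 for Enpp1.

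Of the 9 other PARP family genes tested, 0 had an unadjusted p under 0.05 in either comparison, and the median log2 fold change was 0.09 in PARP1CKO and -0.03 in PARP2CKO. Parp14 and Parp12, enzymes of the interferon response, had log2 fold changes of 0.28 and 0.18 in PARP1CKO, with overlap between the groups. Parp14 had 127 and 105 CPM in the littermates and 119 and 164 CPM in PARP1CKO. With a library left out its log2 fold change ran from 0.03 without PARP1CKO replicate 2 to 0.49 without PARP1CKO replicate 1. Parp12 ran from 0.04 without PARP1 WT replicate 2 to 0.32 without PARP1 WT replicate 1. In PARP2CKO the genes with the smallest p-values were Tiparp at -0.13 and Parp8 at -0.13, both mono-ADP-ribosyl transferases, which were at -0.07 and -0.01 without PARP2 WT replicate 1 and at -0.19 and -0.23 without PARP2 WT replicate 2.

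Parp1 is abundant in dividing cells, so 22 proliferation genes were examined beside it. In PARP1CKO 5 had an unadjusted p under 0.05, beside the 11.3% of all genes, with a median of -0.05. Ccna2 (cyclin A) and Bub1 (a mitotic checkpoint kinase) had log2 fold changes of -0.15 and -0.14. Of the 22 values 16 were negative and 6 positive. E2f1, 1 of the 5 and named outside the rule for list genes, had 0.13. In PARP2CKO 1 gene had an unadjusted p under 0.05, Birc5 (survivin), at -0.12. The median was -0.02, and Ccna2 had -0.07. None was called, and their part in the level of Parp1 was not tested.

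Markers of the labelled cell type were present. The 7 myeloid markers summed to between 7303 and 14727 CPM, with every CKO library below its own littermates. Lyz2, the gene whose locus carries Cre, had log2 fold changes of -0.63 in PARP1CKO and -0.72 in PARP2CKO (adjusted p = 0.135 and 0.187 in edgeR's quasi-likelihood test). The other 6 myeloid markers summed to between 3747 and 3999 CPM in all 8 libraries. Macrophage markers summed to between 3912 and 4667 CPM and neutrophil markers to between 2539 and 3272 CPM, so several myeloid stages were measured together. The 8 B cell markers summed to between 29.6 and 43.3 CPM in the PARP1 mice and between 8.18 and 11.5 CPM in the PARP2 mice, lines whose WT groups differ in Parp2 as given above. Erythroid markers (5.06 to 10.3 against 2.06 to 2.77 CPM) and basophil and mast cell markers (14.8 to 20.9 against 8.13 to 12.6 CPM) were also higher in the PARP1 mice. Granulocyte progenitor markers (272 to 320 against 368 to 416 CPM) and monocyte markers (275 to 336 against 341 to 380 CPM) were lower there. Macrophage markers were lower there too (3912 to 4230 against 4310 to 4667 CPM). Erythroid markers were at 8.43 and 10.3 CPM in PARP1CKO against 6.05 and 5.06 CPM in the littermates. T and NK cell markers stayed at or below 3.47 CPM. No marker of the 10 lists was called in either comparison, and their part in the members' levels was not tested.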

How the data were processed

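IMCs from 4 groups of 2 libraries were profiled. The authors trimmed reads with fastq-mcf, mapped them to mm10 with TopHat 2.0.12, marked duplicates with Picard 1.127 and counted genes with featureCounts. The deposited values are raw counts. Annotation, strand setting and removal of duplicates are not given in the sources used here.

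Counts were analysed in R 4.3.3 with edgeR 4.0.16 (filterByExpr with a minimum count of 10, TMM factors, quasi-likelihood test on a mean per group over all 8 libraries, threshold 0.05) and tested on simulated data, where the share of false calls lay above the threshold in every simulated table. Contrasts were each CKO against its WT and the difference between these effects. Intervals of 95% used the test's degrees of freedom. Replicates differed by more than sampling noise (chi-square per gene between 8.32 and 12.6). Positions come from GENCODE M21 and sequences from RefSeq. A promoter for Tnks was not used here.

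Named genes were the members, the 2 genes of smallest p-value per list and comparison, called list genes, and the nearest tested gene on each side of a member. 1 list gene that met this rule is not reported here. Members and lists were chosen with earlier results of these data known. Alternatives were other scalings, DESeq2 1.42.0, the likelihood-ratio test, other filters, a replicate block, 4 libraries per fit, and each library left out.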

Additional observations from a re-analysis of the deposited data

Results flagged for a closer look

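The effects of the 2 deletions on Parp2 differed by a test of the difference itself. The effect in PARP2CKO minus that in PARP1CKO was -0.82 on the log2 scale, with an adjusted p of 0.00634 in edgeR's quasi-likelihood test. Parp2 was lower in 2 of 2 PARP2CKO libraries than in both littermates, at 25.7 and 25.6 CPM against 48.2 and 48.3 CPM. Parp2 is the gene deleted in 1 of the 2 lines, so a difference was set by the design.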

How the results depend on the processing

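Parp2 was called in PARP2CKO under every alternative run, and Parp1 in PARP1CKO under all but the 3 fits that leave out PARP1 WT replicate 1, PARP1 WT replicate 2 or PARP1CKO replicate 2. The number of genes called in PARP1CKO (14) was 86 with DESeq2, 146 with the likelihood-ratio test, 101 with no filter and between 1 and 34 with a library left out, and that in PARP2CKO (7) was 27, 39, 26 and between 4 and 19. For the difference between effects (2) it was 45, 72, 61 and between 1 and 16. Members called ranged from 0 to 1 in PARP1CKO, where Parp1 lay between -1.80 and -1.71, from 1 to 2 in PARP2CKO, and from 1 to 2 for the difference, with a library left out. For the difference 2 members were called with library size alone, DESeq2, the likelihood-ratio test or no filter. The causes were not tested.

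The replicate numbers are shared by the groups, and whether they pair the samples is not given in the sources used here. Same-numbered deviations correlated at -0.133 in the PARP1 mice and 0.147 in the PARP2 mice. With 2 libraries per group these values cannot decide it. A replicate block gave 17, 11 and 1 genes called in the 3 contrasts, and 0 members for the difference, where Parp2 had -0.82 (adjusted p = 0.0517 in edgeR's quasi-likelihood test). When the numbers were crossed in the PARP1 mice, which was chosen after seeing the data, 46 genes were called in PARP1CKO, 15 in PARP2CKO and 42 for the difference, where 2 members, Parp1 and Parp2, were called.

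These directions were not kept. Parp16 in PARP1CKO was -0.0039 with library size alone, -0.0014 with DESeq2, -0.0031 with the block and -0.0017 with 4 libraries. With a library left out, values in PARP1CKO ran from -0.092 to 0.0053 for Tnks2, -0.093 to 0.089 for Parp16, -0.11 to 0.062 for Adprhl2 and -0.082 to 0.066 for Itpkb. In PARP2CKO they ran from -0.11 to 0.0057 for Parp4, -0.053 to 0.030 for Tnks2, -0.096 to 0.013 for Parg, -0.099 to 0.022 for Adprhl2 and -0.15 to 0.27 for Macrod1. For the difference they ran from -0.054 to 0.028 for Tnks, -0.017 to 0.081 for Tnks2, -0.0049 to 0.18 for Parp16, -0.031 to 0.092 for Parg and -0.098 to 0.073 for Adprhl2. Macrod1 and Parp16 had the fewest counts of the members, and differences of the sizes within their 95% intervals are not excluded. Each interval is for a single gene, while a call is adjusted over all genes tested. A change outside the interval might therefore also not be called.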

Other observations

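Ccnb1ip1, which starts close to Parp2, had 0 counts in 3 of the 4 libraries of the PARP1 mice and 1 count in the other, against 41 and 29 counts in PARP2 WT and 88 and 4 counts in PARP2CKO. Rmrp, the RNA of the RNase MRP enzyme that shares protein subunits with RNase P, had 499 counts in PARP2 WT replicate 1 and between 2 and 38 counts in the other libraries. Both genes were chosen after their values were seen.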
